A study of Mus musculus with 8 samples.

Results

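Haem is made by a chain of enzymes that begins and ends in mitochondria, and 8 genes of this chain were examined: Alas1, Alas2, Alad, Uros, Urod, Cpox, Ppox and Fech. They were chosen by name as haem synthesis enzymes, and all 8 were measured, out of 18193 genes on the array. The first step, the joining of glycine and succinyl-CoA to aminolevulinate, limits the rate and is done by either of a pair of synthases. Alas1 serves all cells, whereas Alas2 is the X-linked form of red cell precursors, whose transcript is induced by erythroid transcription factors and whose translation depends on iron. The remaining enzymes are shared by all cells and are raised further as red cell precursors fill with haemoglobin.

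The cells were bone marrow stem and progenitor cells of C57BL/6 mice, selected in a cell sorter for low lineage markers, Sca1 and high cKit (LSK cells). The mutant group was 4 mice heterozygous for Jak2V617F, the constitutively active form of the kinase that relays erythropoietin and other cytokine signals, and the control group was 4 wild type mice. The sources used here give neither the age of the mice nor how the allele was made. Each mouse gave 1 Affymetrix mouse expression array, and values were log2 intensities normalised by the authors, so a difference of 1 is a 2-fold difference in intensity. All differences are mutant minus wild type, and the number of arrays limits their precision.

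The arrays were alike at large, with medians between 7.06 and 7.15. Kit stood between 12.53 and 12.77 in mutant arrays and between 12.52 and 12.82 in wild type arrays, while Sca1 was not checked. Of 3 measured stem and progenitor cell genes, Kit differed by 0.02, Flt3 by -0.05 and Cd34 by -0.12 (limma adjusted p = 0.918, 0.852 and 0.35). Cd34 lay between 13.86 and 13.97 in mutant arrays and between 14.01 and 14.06 in wild type arrays. Its groups thus did not overlap, as was so for 10.1% of all genes. By Xist and the Y-linked genes, 1 mutant array (array 3) and 2 wild type arrays (arrays 1 and 2) had female expression and the others male expression. These genes also show what absent transcript reads. Among arrays with female expression the Y-linked Kdm5d lay between 3.06 and 4.89, Uty between 3.41 and 4.22 and Eif2s3y between 5.11 and 5.37, and among those with male expression Xist lay between 5.54 and 6.54. This level thus differs by probe set. The 3′ minus 5′ signal of the actin control probe sets, a measure of RNA quality, ranged from 0.63 to 0.73 in mutant arrays and from 0.60 to 0.72 in wild type arrays.

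Alas2, the erythroid aminolevulinate synthase, showed the largest difference of the 8 genes, but it came from 3 of the 4 mutant arrays. Its log2 intensity was 6.89, 8.02, 5.56 and 7.75 in mutant arrays 1 to 4, against 5.54, 5.40, 5.86 and 5.34 in wild type arrays 1 to 4. Mutant array 3 thus read like wild type and lay below wild type array 3, so the groups overlapped. The means were 7.06 ± 1.11 in mutant cells and 5.54 ± 0.23 in wild type cells (SD, n = 4 each), a difference of 1.52 ± 0.46 (SE) or 2.87-fold, with a 95% interval from 1.39-fold to 5.94-fold. The difference did not pass the threshold over all genes (limma adjusted p = 0.189, unadjusted p = 0.0095), and the exact permutation p was 0.0571.

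Wild type arrays and mutant array 3 read Alas2 between 5.34 and 5.86, above the readings of absent Kdm5d and Uty, within or above those of Eif2s3y and below the highest of Xist. Whether Alas2 transcript was present in those arrays, and so the size of the difference, depends on the background of its probe set, which is not known. With all values raised to at least 6.54, the highest reading of Xist in arrays with male expression, the Alas2 difference was 0.76 (limma adjusted p = 0.458). Without mutant array 3 it was 2.02 and passed the threshold (limma adjusted p = 0.0357). Mutant array 3 was also the only mutant array with female expression, so that array and sex cannot be told apart within the mutant group. In arrays with male expression Alas2 read 6.89 to 8.02 in 3 mutant mice, against 5.34 to 5.86 in 2 wild type mice, a difference of 1.95 (limma adjusted p = 0.122). In arrays with female expression Alas2 read 5.56 in 1 mutant mouse, against 5.40 to 5.54 in 2 wild type mice. With sex as a covariate over all 8 arrays the Alas2 difference was 1.29 (limma adjusted p = 0.174). Alas2 had a single probe set, and in sorted bulk cells more cells of a type and more RNA per cell cannot be told apart.

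**Figure D1:**
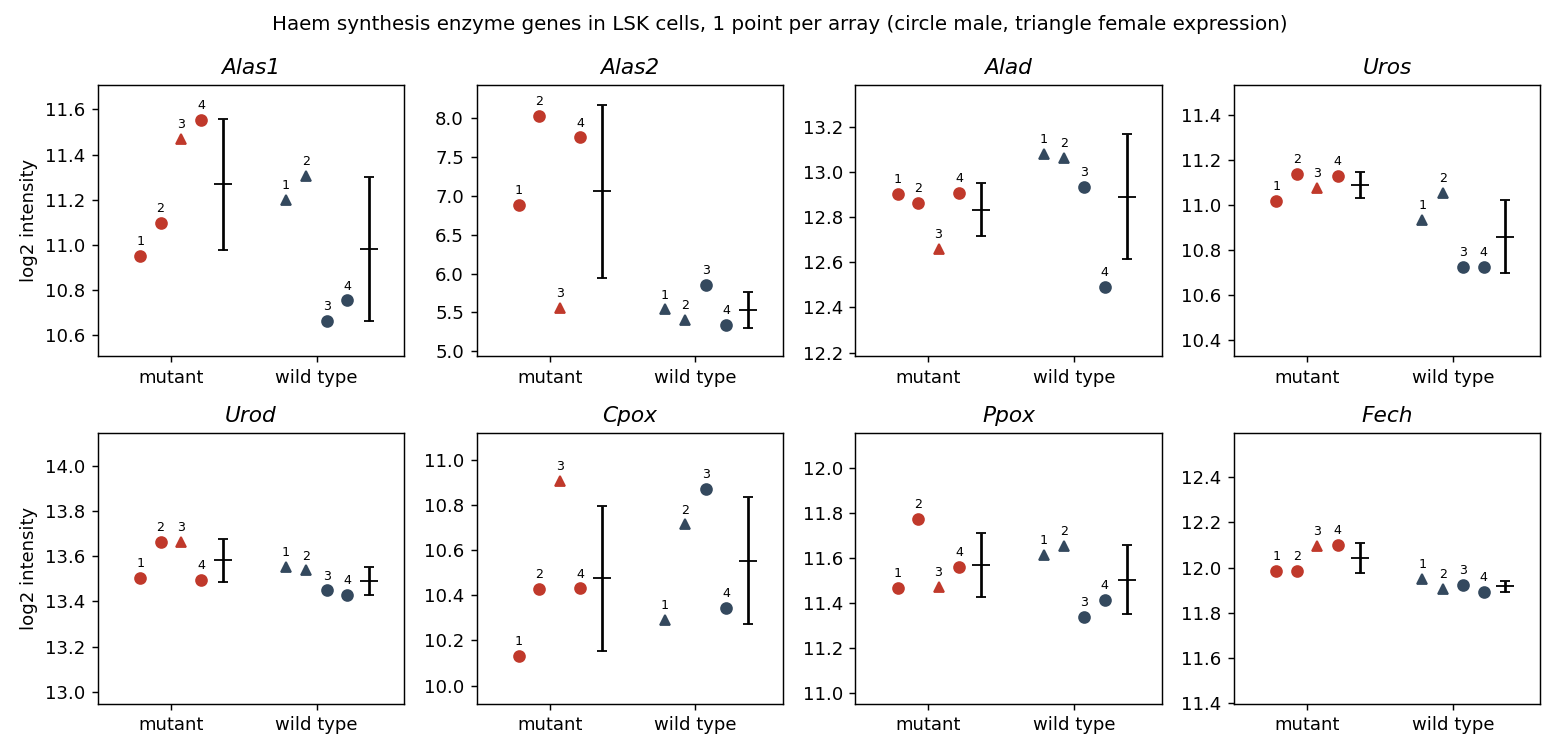
Log2 intensity of the 8 haem synthesis enzyme genes in each array (mutant left, wild type right; the number is the array, circles male and triangles female expression; bars mean ± SD over 4 arrays; each panel has its own axis). Alas2 is high in mutant arrays 1, 2 and 4 and at the wild type level in array 3. Fech is the 1 gene of the 8 without overlap between the genotypes, against 10.1% of all genes.

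Alas1, the synthase that serves all cells, was well expressed in both genotypes. It read 10.95, 11.10, 11.47 and 11.55 in mutant arrays 1 to 4, against 11.20, 11.31, 10.67 and 10.75 in wild type arrays 1 to 4. The highest value was in mutant array 4 and the lowest in wild type array 3, and the groups overlapped. The difference was 0.29 ± 0.18 (SE; limma adjusted p = 0.436), with a 95% interval from 0.91-fold to 1.63-fold. The second Alas1 probe set differed by 0.27. Both wild type arrays with female expression read higher than both with male expression, and in arrays with male expression alone the Alas1 difference was 0.49 (limma adjusted p = 0.263).

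The control regions of the synthase genes are shown because Alas2 and Alas1 had the largest differences of the 8 genes. The sequences are the 250 bases before the outermost transcript start in RefSeq (GRCm38.p6), read 5′ to 3′ along the gene, with capitals marking the words GATAA and CACCC on either strand. They lie at chrX:150547167-150547416 on the plus strand for Alas2 and at chr9:106247955-106248204 on the minus strand for Alas1.
Alas2: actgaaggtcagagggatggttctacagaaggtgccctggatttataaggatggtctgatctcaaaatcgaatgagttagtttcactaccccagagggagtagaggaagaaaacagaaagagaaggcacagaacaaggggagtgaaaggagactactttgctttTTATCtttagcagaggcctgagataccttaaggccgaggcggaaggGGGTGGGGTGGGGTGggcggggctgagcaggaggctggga
Alas1: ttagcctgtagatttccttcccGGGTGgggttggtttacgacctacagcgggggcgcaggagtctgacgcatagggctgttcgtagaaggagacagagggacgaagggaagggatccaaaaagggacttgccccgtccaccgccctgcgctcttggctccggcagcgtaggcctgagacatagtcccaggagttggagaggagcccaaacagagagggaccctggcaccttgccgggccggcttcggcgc
The Alas2 stretch held 1 GATAA word, at -86 to -82 from the transcript start, and 3 adjoining CACCC words, at -40 to -26, all on the opposite strand. The Alas1 stretch held no GATAA word and 1 CACCC word, at -228 to -224, also on the opposite strand. Gata1 and its relatives bind GATA words, and Klf1 and other factors of its family bind CACCC words.

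Of 32851 promoter windows of 300 bases (250 before and 50 after the start), 25.4% held GATAA and 57.5% held CACCC. Windows with 3 or more CACCC words made up 9.35%. The 300-base window of the Alas1 start shown held 2 CACCC words, 1 of them after the start, at 22 to 26. Windows of 7 of the 8 genes were read, Fech excepted. The Cpox window held 2 GATAA and 4 CACCC words. A second Uros start held 1 GATAA word, and the Ppox window held neither word. A match is a description of letters and not a bound site.

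The cytosolic enzymes of the middle of the pathway differed little. Alad, which condenses aminolevulinate to porphobilinogen, read 12.90, 12.86, 12.66 and 12.91 in mutant arrays 1 to 4, against 13.08, 13.06, 12.93 and 12.49 in wild type arrays 1 to 4. Wild type arrays held both the highest and the lowest value. The difference was -0.06 ± 0.13 (SE; limma adjusted p = 0.84). The dimmer Alad probe set read 8.14 ± 0.20 in mutant cells and 8.49 ± 0.24 in wild type cells (SD, n = 4 each), a difference of -0.35 whose limma p over all probe sets was 0.252 after adjustment. Among arrays with male expression the Alad difference was 0.18, the opposite sign.

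Uros, which closes the ring into uroporphyrinogen III, read 11.02, 11.14, 11.07 and 11.13 in mutant arrays 1 to 4, against 10.93, 11.05, 10.73 and 10.73 in wild type arrays 1 to 4. The mutant arrays lay close together and only wild type array 2 reached into their range. The difference was 0.23 ± 0.09 (SE), or 1.17-fold with a 95% interval from 1.02-fold to 1.35-fold. Its unadjusted limma p was 0.0311 and its adjusted p was 0.25, so that it did not pass over all genes. The exact permutation p for Uros was 0.0571. A dim second Uros probe set, at 6.14 ± 0.19 in mutant and 5.90 ± 0.14 in wild type cells (SD, n = 4 each), lay above the readings of absent Kdm5d, Uty and Eif2s3y and below the highest of Xist.

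Urod, which trims the side chains of the ring to coproporphyrinogen, was the brightest probe set of the 8 and the least variable after Fech. It read 13.50, 13.67, 13.66 and 13.50 in mutant arrays 1 to 4, against 13.55, 13.54, 13.45 and 13.43 in wild type arrays 1 to 4. Mutant arrays 2 and 3 lay above all others, and arrays 1 and 4 lay within the wild type range. The difference was 0.09 ± 0.07 (SE; limma adjusted p = 0.531), and the second Urod probe set differed by 0.10. Brightness differs between probe sets and does not rank transcripts of different genes.

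The last enzymes act in mitochondria. Cpox, which makes protoporphyrinogen between the mitochondrial membranes, read 10.13, 10.43, 10.91 and 10.43 in mutant arrays 1 to 4, against 10.29, 10.71, 10.87 and 10.34 in wild type arrays 1 to 4. Values were spread alike in both genotypes, and the difference was -0.08 ± 0.18 (SE; limma adjusted p = 0.841). A second Cpox probe set differed by -0.0081. The remaining Cpox probe set read 4.27, 4.21, 4.16 and 4.07 in mutant arrays 1 to 4, against 5.09, 4.44, 5.11 and 4.81 in wild type arrays 1 to 4. Every mutant array lay below every wild type array, a difference of -0.69 ± 0.14 (SE). Its limma p of 0.000886 was the smallest of the 19 probe sets and was 0.0884 when adjusted over all probe sets. These values lie among those of absent transcript, above some readings of Kdm5d and Uty and below those of Eif2s3y, and whether they measure a transcript was not tested.

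Ppox, which oxidises the product to protoporphyrin, read 11.47, 11.77, 11.47 and 11.56 in mutant arrays 1 to 4, against 11.61, 11.65, 11.34 and 11.41 in wild type arrays 1 to 4. Mutant array 2 was highest and the groups overlapped. The difference was 0.06 ± 0.10 (SE; limma adjusted p = 0.764). Another Ppox probe set differed by 0.04, and the remaining one, at 3.31 to 3.80 over both genotypes, lay within the readings of absent transcript.

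Fech, the ferrochelatase that inserts iron to complete haem, was the 1 gene of the 8 whose groups did not overlap, against 10.1% of all genes. It read 11.98, 11.98, 12.09 and 12.10 in mutant arrays 1 to 4, against 11.95, 11.91, 11.92 and 11.89 in wild type arrays 1 to 4. Every mutant array lay above every wild type array, by a small margin. The difference was 0.12 ± 0.06 (SE), or 1.09-fold, and did not pass (limma adjusted p = 0.345). The exact permutation p was 0.0286, the smallest that 4 arrays against 4 allow, which any gene without overlap reaches.

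The other Fech probe sets differed among themselves. One differed by -0.07, with overlapping groups. Another read 9.51, 9.34, 9.51 and 9.53 in mutant arrays 1 to 4, against 8.83, 9.38, 9.31 and 8.58 in wild type arrays 1 to 4, a difference of 0.45 ± 0.17 (SE). Its limma p was 0.0253, or 0.233 adjusted over all probe sets. The remaining Fech probe set read 5.64 to 6.27 in mutant arrays and 5.19 to 6.19 in wild type arrays, within the readings of absent Eif2s3y and Xist but above those of Kdm5d and Uty.

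**Figure D2:**
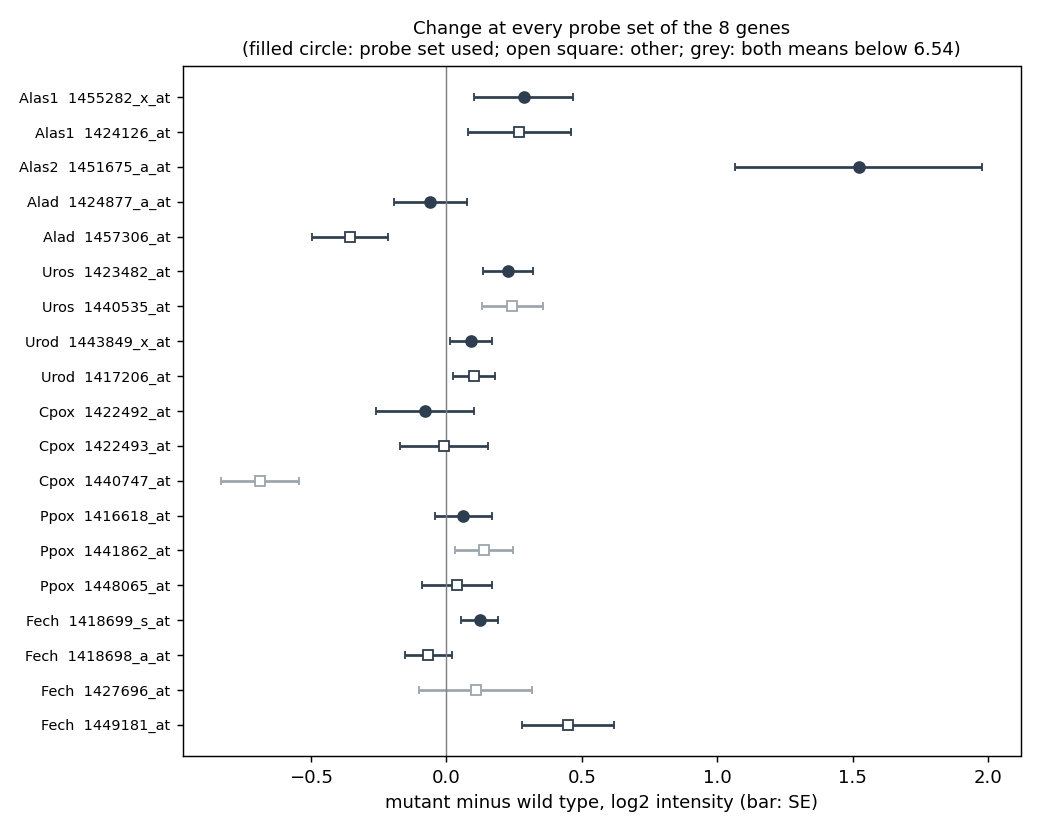
Difference in log2 intensity, mutant minus wild type (bar: SE), at the 19 probe sets of the 8 genes, with the probe set used for each gene as a filled circle and dim probe sets in grey. The Alas1 and Urod probe sets lie together, whereas those of Fech lie on both sides of 0.

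As a list, 6 of the 8 genes had a difference above 0 and 2 had one below, with a median of 0.11. Over all genes 62.6% had a difference above 0 and the median was 0.05. In limma 0 of the 8 passed the adjusted threshold of 0.05, which 0.165% of all genes passed. An unadjusted limma p under 0.05 was reached by 2 of the 8, Alas2 and Uros, against 17.2% of all genes. Groups that did not overlap were found for 1 of the 8, against 10.1% of all genes. For the 7 genes other than Alas2 the 95% intervals of the log2 difference reached no lower than -0.49 and no higher than 0.70, so 2-fold differences lay outside the interval of each.

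**Figure D3:**
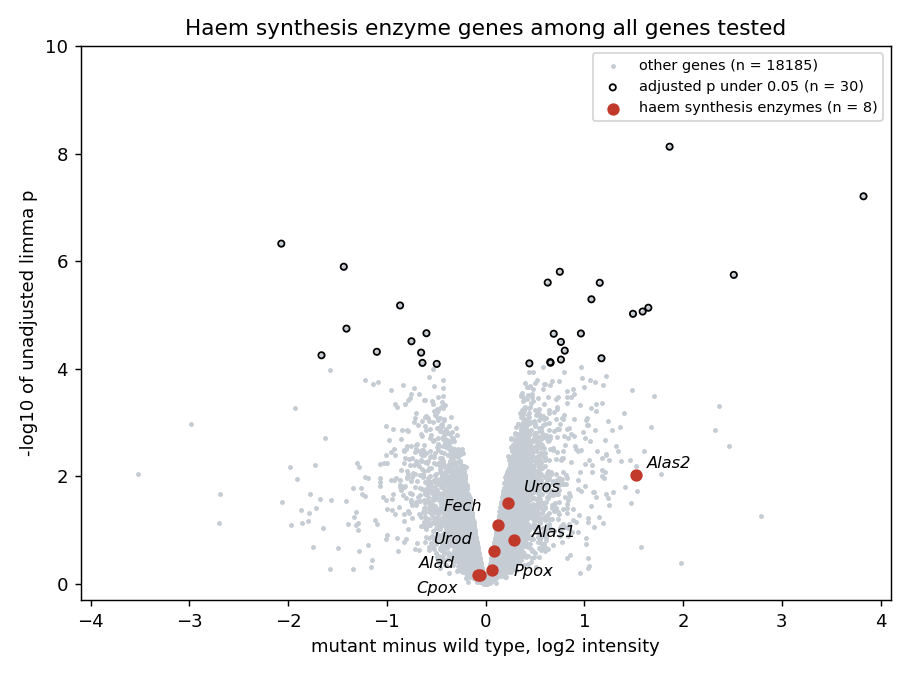
Difference in log2 intensity (mutant minus wild type) against -log10 of the unadjusted limma p for all genes, with the 8 haem synthesis enzyme genes in red and the 30 genes that passed the adjusted threshold circled. Alas2 lies to the right at 1.52, and the other 7 lie near 0 within the bulk of genes.

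The 5 genes whose log2 values were most like those of Alas2 over the 8 arrays, among the 9097 genes at or above the median brightness, were Glrx5, Tmprss3, Lzic, Nipsnap2 and Ifitm6. Their Pearson r with Alas2 ran from 0.948 to 0.924, and after subtraction of genotype means from 0.83 to 0.961. These values describe 8 arrays that share a genotype split, and the genes were picked as the highest of many. Glrx5, a mitochondrial glutaredoxin of iron-sulphur cluster assembly, read 11.59, 11.67, 11.50 and 11.68 in mutant arrays 1 to 4, against 11.54, 11.52, 11.48 and 11.49 in wild type arrays 1 to 4. Mutant array 3 read at the wild type level, a pattern that choice by likeness to Alas2 favours. The Glrx5 difference was 0.10 ± 0.07 (SE; limma adjusted p = 0.437). Ifitm6 differed by 1.36 (limma adjusted p = 0.103), with mutant array 3, at 9.38, the lowest mutant array. For Alas1 the 5 most alike genes were Ctsg, Muc13, Klhl26, Tmem229b and Fstl3, with r from 0.975 to 0.948. Ctsg, the granule protease cathepsin G, read 14.01, 14.13, 14.48 and 14.36 in mutant arrays 1 to 4, against 14.13, 14.25, 13.80 and 13.85 in wild type arrays 1 to 4.

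Erythroid genes were read beside Alas2, since red cell precursors are the cells in which it is best known. Of 20 measured erythroid markers 19 had a difference above 0, with a median of 0.54, and 0 passed limma's adjusted threshold, while 5 had an unadjusted p under 0.05. Their mean log2 level ranged from 8.75 to 9.85 in mutant arrays and from 8.39 to 9.20 in wild type arrays. Slc4a1, the anion exchanger of the red cell membrane, read 9.10, 10.85, 8.34 and 10.13 in mutant arrays 1 to 4, against 6.96, 7.16, 8.12 and 6.90 in wild type arrays 1 to 4. The beta globin gene Hbb-b2 read 11.12, 11.76, 10.31 and 11.55 in mutant arrays 1 to 4, against 8.97, 9.51, 10.34 and 9.22 in wild type arrays 1 to 4. For both, as for Alas2, mutant array 3 was the lowest mutant array and wild type array 3 the highest wild type array.

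Mutant array 3 was not low for erythroid genes in general. It was the lowest mutant array for 3 of the 20 markers (Slc4a1, Hbb-b2 and Trim10) and the highest for 8, among them Klf1, Epor and Rhag. Mutant array 1, in which Alas2 stood above every wild type array, was the lowest for 11 of them. Klf1, a transcription factor that activates globin and haem genes, read 9.78, 10.94, 11.30 and 10.79 in mutant arrays 1 to 4, against 10.04, 10.25, 10.47 and 9.50 in wild type arrays 1 to 4. Gata1, which acts on Alas2 in erythroid cells, read 10.67, 10.98, 11.40 and 10.63 in mutant arrays 1 to 4, against 10.54, 10.72, 10.48 and 9.92 in wild type arrays 1 to 4. Mutant array 3, the only mutant array with female expression, was the highest array for both factors and the lowest mutant array for Alas2. Macrophage markers averaged 8.43 to 9.27 in mutant arrays and 7.88 to 8.63 in wild type arrays, with array 3 the highest mutant array. All 6 measured megakaryocyte markers had a difference above 0 (median 0.37), against 62.6% of all genes. The part of Gata1, of Klf1, or of erythroid, macrophage or megakaryocyte cells in the Alas2 difference was not tested.

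**Figure D4:**
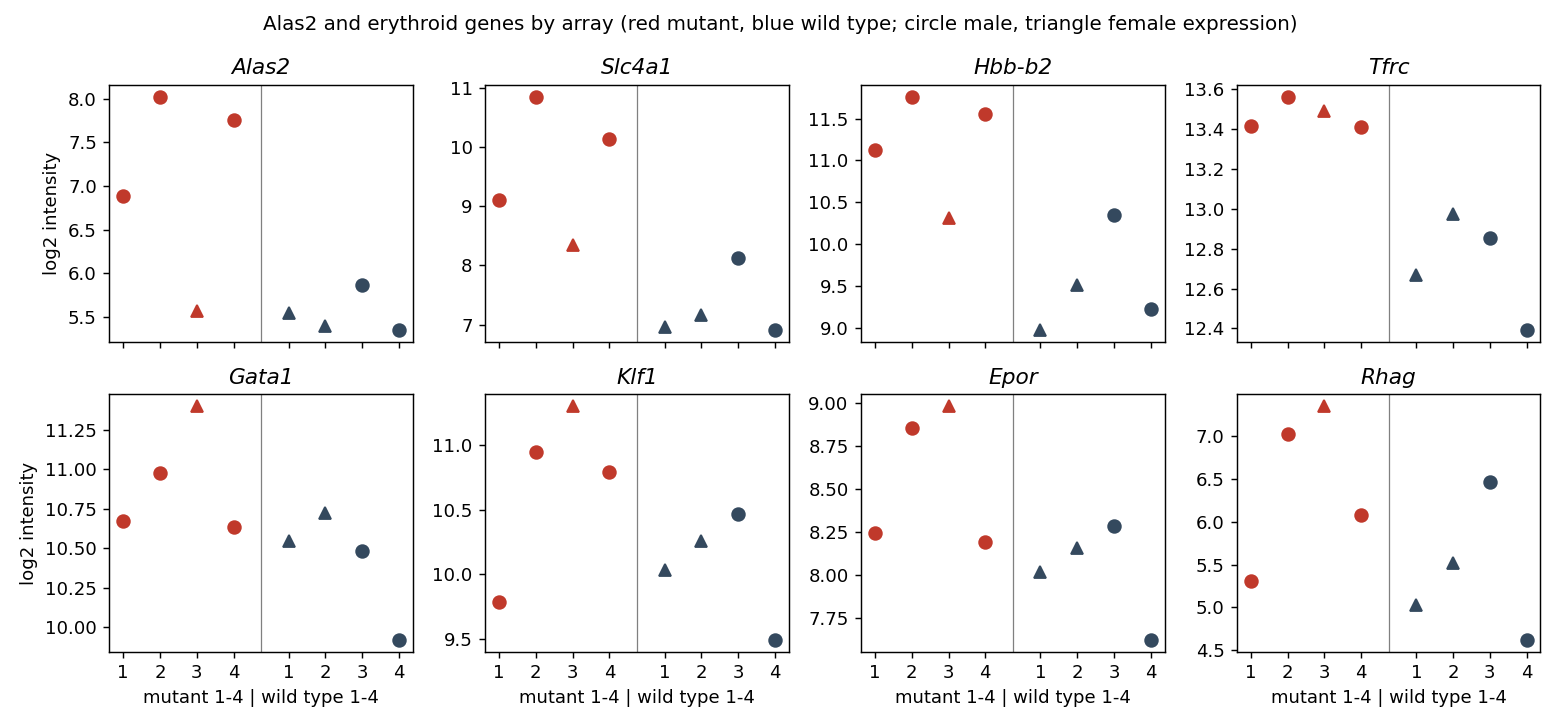
Log2 intensity of Alas2 and 7 erythroid genes in each array (mutant 1 to 4, then wild type 1 to 4; circles male and triangles female expression; each panel has its own axis). Mutant array 3 is the lowest mutant array for Alas2, Slc4a1 and Hbb-b2 and the highest for Gata1, Klf1, Epor and Rhag.

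Among the regulators of haem synthesis, 15 were measured, 7 with a difference above 0 and 8 below, with a median of -0.01. In limma 0 passed the adjusted threshold. An unadjusted p under 0.05 was found for 1 of the 15, against 17.2% of all genes. It was Gata1 (0.50 ± 0.21, SE; limma adjusted p = 0.271). Klf1 differed by 0.64 ± 0.32 (SE; limma adjusted p = 0.337). Nfe2l1 and Gata2 had differences of -0.13 and -0.09 (limma adjusted p = 0.411 and 0.515).

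Genes of substrate supply and of porphyrin and haem transport held 22 measured members, 14 with a difference above 0 and 8 below, and a median of 0.09. In limma 0 passed the adjusted threshold. An unadjusted p under 0.05 was found for 4 of the 22, 3 higher and 1 lower, against 17.2% of all genes. Abcb6, a porphyrin transporter, read 10.76, 10.74, 10.73 and 10.82 in mutant arrays 1 to 4, against 10.37, 10.51, 10.06 and 10.31 in wild type arrays 1 to 4. All mutant arrays, array 3 included, lay above all wild type arrays, a difference of 0.45 ± 0.10 (SE; limma adjusted p = 0.0997). Fam210b, a mitochondrial protein needed for haem synthesis in erythroid cells, read 11.03, 11.20, 11.04 and 10.90 in mutant arrays 1 to 4, against 10.72, 10.74, 10.71 and 10.69 in wild type arrays 1 to 4. Its groups did not overlap either, with a difference of 0.33 ± 0.08 (SE; limma adjusted p = 0.115). Of the 22 genes, 4 were higher and 2 lower in mutant cells without overlap between the genotypes, against 10.1% of all genes in either direction. Those named here had the smallest p of the list.

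The iron importers and partners of ferrochelatase did not share 1 direction. Slc25a37, the mitochondrial iron importer mitoferrin of erythroid cells, read between 10.91 and 11.14 in mutant arrays and between 11.16 and 11.30 in wild type arrays. Every mutant array lay below every wild type array, a difference of -0.21 ± 0.07 (SE; limma adjusted p = 0.22). Abcb10, a mitochondrial transporter that stabilises mitoferrin, differed by 0.32 ± 0.14 (SE; limma adjusted p = 0.283), with mutant arrays between 12.04 and 12.10 and wild type arrays between 11.44 and 12.05. Tfrc, the transferrin receptor that brings iron into the cell, read 13.41 to 13.56 in mutant arrays and 12.39 to 12.98 in wild type arrays (limma adjusted p = 0.0652). Unlike Alas2, it was high in all 4 mutant arrays.

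Haem breakdown genes held 4 measured members, 3 with a difference above 0, a median of 0.08, and 0 with an adjusted or unadjusted limma p under 0.05. Hmox1, the inducible haem oxygenase, read 9.14, 9.78, 9.57 and 9.89 in mutant arrays 1 to 4, against 9.63, 9.77, 9.59 and 9.33 in wild type arrays 1 to 4, a difference of 0.02 (limma adjusted p = 0.968). Blvrb, a biliverdin reductase abundant in red cells, differed by 0.26 ± 0.19 (SE; limma adjusted p = 0.488), and mutant array 1 was its lowest array at 10.94.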

How the data were processed

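RNA of sorted cells from 8 mice was amplified with a linear amplification kit and hybridised to 1 array each, as the labels' protocols state. The authors deposited log2 intensities, 1 column per mouse. They had used RMA with affy under R 2.11.0, per the submitters' processing notes. That the scale is log2 was judged from the range of values, and the sources used here name no chip definition. Quantile normalisation hides a shift of most transcripts in 1 direction. Scanner files were not used here, so neither another background correction nor a scan batch could be tried.

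The array's platform annotation gave the gene of each probe set, with Entrez identifiers matched to RefSeq genes of GRCm38.p6 for 34741 of the 34945 with 1 symbol, of which 0 changed symbol. Probe sets with several symbols (932), without one (9160) and control probe sets (64) were left out. Each gene was read from its brightest probe set by mean over the 8 arrays. Genotypes were compared with limma 3.58.1 in R 4.3.3, without covariates, two-sided, with Benjamini-Hochberg adjustment over 18193 genes. Exact permutation tests were two-sided, in SciPy 1.17.1. The labels describe separate mice.

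The genes and lists were chosen with earlier results of these data known. All 8 enzymes were named, with up to 4 genes of smallest p per list and the 5 genes most like Alas2 and Alas1. Rhag, Trim10 and the motif words were chosen after values were seen, as was the background floor. The alternatives tried were a replicate block, centring, filters, probe set choices, priors, array weights, sex and each array left out.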

Additional observations from a re-analysis of the deposited data

Results flagged for a closer look

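Of 39 genes tested in both genotypes for an array far from the other 3 of its group, 1 group of 78 stood out, where chance gives about 5%. It was none of the haem synthesis enzymes. The platelet factor gene Pf4, read as a megakaryocyte marker, was 11.09 in mutant array 4, against 11.96 to 12.10 in the other mutant arrays.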

How the results depend on the processing

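The Alas2 difference was above 0 under all 17 alternatives that gave a value, from 0.76 with the background floor to 2.02 without mutant array 3, where it passed (limma adjusted p = 0.0357). With each array left out it ranged from 1.20 to 2.02 and the count of enzymes called from 0 to 1. The adjusted p of Alas2 over its alternatives ranged from 0.0357 to 0.458. Alas2 gave no value with dim genes or with _s_at, _x_at and _a_at probe sets left out, since its 1 probe set is of these kinds. Alas1, Uros, Urod and Fech kept their direction under all 19 alternatives and were not called under any, with differences from 0.18 to 0.49 for Alas1, 0.18 to 0.37 for Uros, 0.06 to 0.12 for Urod and 0.10 to 0.45 for Fech, highest without _s_at, _x_at and _a_at probe sets. Small differences changed sign. With each array left out Alad ranged from -0.19 to 0.0045, Cpox from -0.22 to 0.035 and Ppox from -0.0050 to 0.11, and Alad was 0.18 among arrays with male expression; the cause was not tested.

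Over all genes 30 were called. The count was 49 with probe sets averaged, 60 over all probe sets, 60 when sex was a covariate, 75 with a trended robust prior, 199 at an adjusted p of 0.1 and 3123 at an unadjusted p of 0.05, where 2 enzymes passed. With each array left out it ranged from 13 to 40. With the replicate number as a block it was 8, and the Alas2 difference stayed 1.52 (limma adjusted p = 0.257). Same-numbered arrays did not deviate together (r from -0.22 to 0.10, with 2 of 8 arrays closest to their own number), so the numbers were not taken as pairs.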

Other observations

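Among the macrophage markers Cd163, the scavenger receptor for haemoglobin bound to haptoglobin, had the smallest p. It read 9.32, 9.56, 9.67 and 9.58 in mutant arrays 1 to 4, against 8.69, 8.81, 8.94 and 9.09 in wild type arrays 1 to 4. Its groups did not overlap, as was so for 10.1% of all genes, and the difference was 0.65 ± 0.11 (SE; limma adjusted p = 0.0652). The iron exporter gene Slc40a1 differed by 0.74 ± 0.23 (SE; limma adjusted p = 0.197), with mutant arrays between 9.24 and 9.91 and wild type arrays between 8.30 and 9.43, so that its groups overlapped. All 11 measured macrophage markers had a difference above 0, with a median of 0.55, and 0 passed the adjusted threshold, while 5 had an unadjusted limma p under 0.05.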
